A study of Mus musculus with 20 samples.

Results

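The galectin genes of a murine B16 Bcr-Abl+ cell line were followed across 6 transfections with NF-kB p65/RelA constructs. The set holds 7 genes, Lgals1, Lgals3, Lgals3bp, Lgals4, Lgals7, Lgals8 and Lgals9, chosen by name and found on the array through the accession printed for each probe. They carried 10 of the 39429 non-control probes and were 7 of 21612 genes on the array. Of the 7 genes 6 were measured, meaning that 3 or more of the 20 arrays showed a probe well above background. So did 18739 entries in all, called genes below, of 32016 with no filter. Of the 18739 entries 13824 had a gene symbol, and the rest stand for accessions of probes without a symbol. Lgals7 did not reach the mark of 3 arrays.

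B16 is a melanoma line, and Bcr-Abl is a fusion tyrosine kinase. The strain field of the labels reads C3H eOuJ for every sample. Cells in DMEM with serum received p65 D361E, a form labelled non-cleavable (3 arrays), p65 residues 1 to 361 (the N-fragment, 3 arrays), residues 362 to 549 (the C-fragment, 3 arrays), both fragments together (N+C, 5 arrays), wild-type p65 (WT, 3 arrays) or a void plasmid (3 arrays). All groups share the Bcr-Abl+ B16 background, and the labels give neither the time after transfection nor whether replicates were separate cultures, so the errors below measure only the spread between these arrays.

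Galectins are small lectins that bind beta-galactoside sugars on glycoproteins, both outside the cell and, after membrane damage, inside it. Galectin-1 and galectin-7 are prototype members with 1 carbohydrate-binding domain. Galectin-4, galectin-8 and galectin-9 are tandem-repeat members that join a pair of such domains, and galectin-3 is the chimera type, with a single domain on a tail that lets it oligomerise. Lgals3bp encodes a secreted scavenger-receptor glycoprotein that galectin-3 binds, and it is no lectin itself. p65 is the NF-kB subunit whose N-terminal part holds the DNA-binding Rel homology domain and whose C-terminal part holds the transactivation domains.

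A RefSeq promoter table (build GRCm38.p6) held 6 of the 7 genes, all but Lgals1. The 250 bases before the gene start are shown for 3 of them, since Lgals3, Lgals3bp and Lgals8 were the members that were lower with the N-fragment. Capitals mark a match to the NF-kB consensus. The windows are chr14:47373610-47373859 on the plus strand for Lgals3, chr11:118401960-118402209 on the minus strand for Lgals3bp and chr13:12461739-12461988 on the minus strand for Lgals8.
Lgals3: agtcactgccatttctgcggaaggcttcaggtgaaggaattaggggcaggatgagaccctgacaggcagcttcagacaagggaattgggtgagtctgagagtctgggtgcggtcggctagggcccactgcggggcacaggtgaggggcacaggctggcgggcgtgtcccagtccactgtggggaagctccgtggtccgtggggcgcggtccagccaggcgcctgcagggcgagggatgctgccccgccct
Lgals3bp: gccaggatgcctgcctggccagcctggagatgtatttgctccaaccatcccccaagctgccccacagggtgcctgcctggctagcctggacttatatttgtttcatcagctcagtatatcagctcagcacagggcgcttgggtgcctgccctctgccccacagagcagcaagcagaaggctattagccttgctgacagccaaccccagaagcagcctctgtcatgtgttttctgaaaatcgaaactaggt
Lgals8: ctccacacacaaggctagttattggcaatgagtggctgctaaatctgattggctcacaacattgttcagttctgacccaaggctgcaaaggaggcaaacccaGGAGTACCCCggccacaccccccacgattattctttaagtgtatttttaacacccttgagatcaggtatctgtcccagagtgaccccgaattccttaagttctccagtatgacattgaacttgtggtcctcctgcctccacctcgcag

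The Lgals3 window had a GC content of 66% with 13 CpG dinucleotides, against a median of 52.4% and 6 CpG over the 32851 promoters of that length. Lgals3bp had 55.6% with 2 CpG and Lgals8 49.2% with 4 CpG. Both strands of each window were searched for the NF-kB consensus, for the AP-1 letters TGANTCA and for the TATA letters TATAAA. Among the 6 windows 1 match was found, an NF-kB consensus match that begins 148 bases before the start of Lgals8. It lies on the strand opposite to the printed sequence. The NF-kB consensus occurred in 3.9% of all promoters, AP-1 in 6.75% and TATA in 12.4%. A match or its absence describes these letters only.

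Detection was similar across arrays. Between 51.1 and 57.9% of the 43020 non-control spots were well above background on each array, and no spot was saturated. All 7 melanocyte markers were above background on 20 of 20 arrays, and their summed log2 level lay between 10.09 and 10.48. Of 8 macrophage markers 3 (Csf1r, Cd68, Itgam) were above background on every array, while Adgre1, Fcgr1 and Ptprc were on 0. Cd14 was on 12 arrays and Lyz2 on 2. Of the 7 lymphoid markers 5 were on 0 and Vpreb1 was on all 20. Rela, the gene of the transfected protein, was called with the N-fragment (0.36 ± 0.07 log2 units against void, limma adjusted p = 0.00089) and with none of the other 4 constructs (0.07 to 0.18). With WT it was 0.07 ± 0.07 and with D361E 0.08 ± 0.07, so no rise of Rela RNA was called with either of these forms. Whether the Rela probe lies in the sequence of either fragment was not examined.

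The 5 N+C arrays fell into sets of 3 (replicates 1 to 3, array numbers 16 to 18) and 2 (replicates 4 and 5, array numbers 19 and 20). The sets do not follow the slides, since N+C 1 and N+C 4 shared slide 5. Between the 2 set means 1899 of 18727 genes (10.1%) differed by more than 2-fold. The labels give no reason. N+C values are given over all 5 arrays and, as set means, for replicates 1 to 3 and then for replicates 4 and 5.

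Levels below are log2 signals relative to the 75th percentile of the same array, so a level of 0 equals that percentile. A difference is the mean level of one group minus that of the other, with the standard error (SE) of a linear model (limma) over all 6 groups. A gene is called when its Benjamini-Hochberg adjusted p over all 18739 genes is under 0.05. The galectins were picked with results of these arrays in view, so their values are a description, and no p-value is given for them. Since each sample is a bulk RNA extract, fewer cells that express a gene and less of its RNA per cell cannot be told apart.

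**Figure D1:**
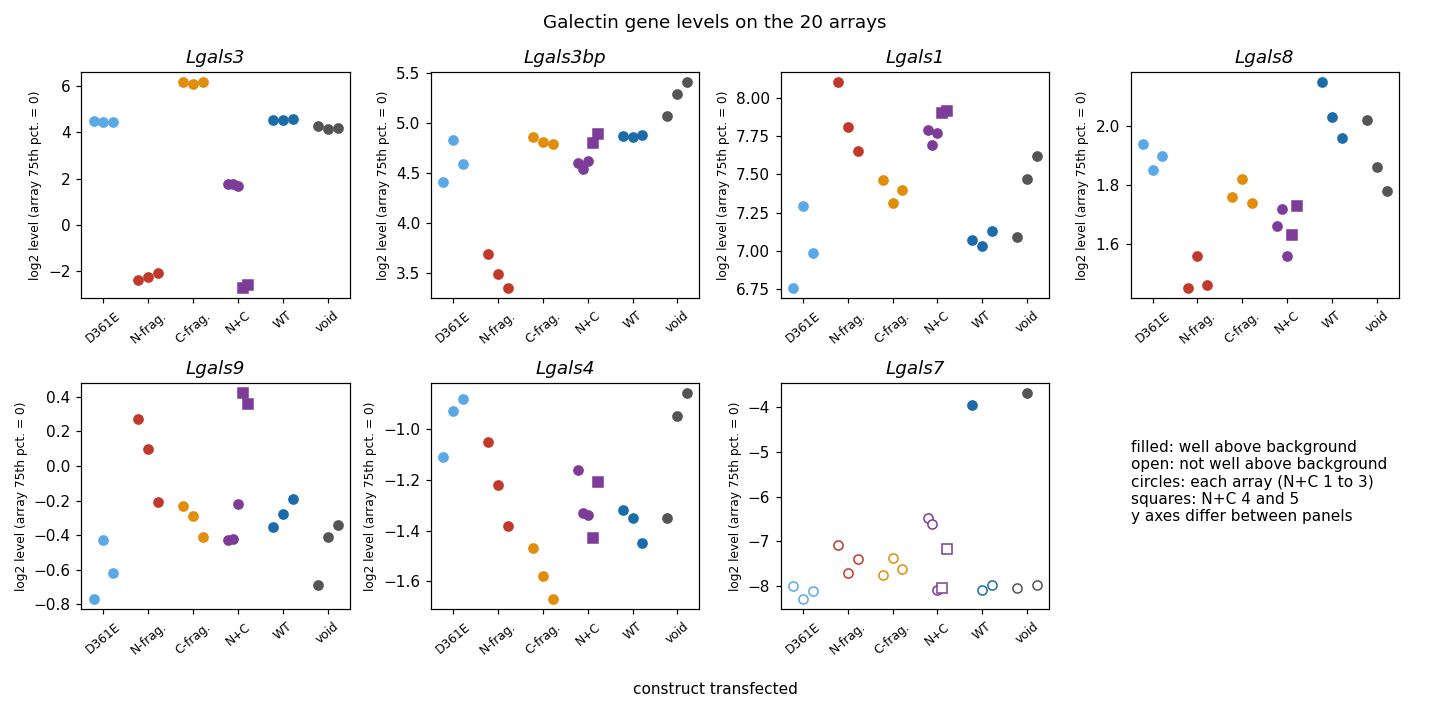
Log2 level of the 7 galectin genes (y axis, the array's 75th percentile is 0) on each of the 20 arrays by construct (x axis). Each point is 1 array, open points were not well above background, and squares are N+C 4 and 5. Lgals3 spans from -2.72 on N+C 4 to 6.16 on C-fragment 1, while the y axes of the other genes cover narrower ranges.

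Lgals3, the gene of galectin-3, had the widest range of the family, 8.37 log2 units between the highest and lowest group mean, which ranked 3 among 18739 genes whose median range was 0.52. Its levels were 4.47, 4.42 and 4.45 with D361E, -2.36, -2.25 and -2.08 with the N-fragment, and 6.16, 6.10 and 6.15 with the C-fragment. With N+C they were 1.75, 1.77 and 1.67 on replicates 1 to 3 and -2.72 and -2.58 on replicates 4 and 5, with WT 4.52, 4.51 and 4.57, and with void 4.27, 4.12 and 4.18. From low to high the order was the N-fragment, N+C as a whole, void, D361E, WT and the C-fragment. The arrays of neighbouring groups in that order did not overlap, apart from N+C, whose set of 2 lay below every N-fragment array and whose set of 3 lay between the N-fragment and void. Lgals3 was well above background on all 20 arrays, the N-fragment arrays included.

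Against void, the Lgals3 difference with the N-fragment was -6.42 ± 1.00 (SE) log2 units, 85.7-fold lower, and it was called. With the C-fragment the difference was 1.95 ± 1.00, 3.85-fold higher than void, and all 3 C-fragment arrays lay above all 3 void arrays, although the 6-group model did not call it. The D361E and WT differences were small, 0.26 ± 1.00 and 0.34 ± 1.00. These SEs are wide because the N+C arrays enter the shared spread: the within-group SD of Lgals3 was 0.98 over all groups and 0.08 over the other 5 groups. Without the N+C arrays, a setting chosen after the data were seen, the N-fragment difference was -6.42 ± 0.07, the C-fragment difference 1.95 ± 0.07, the D361E difference 0.26 ± 0.07 and the WT difference 0.34 ± 0.07, and all 4 were called.

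The fragments stood at opposite ends for Lgals3. The N-fragment mean of -2.23 ± 0.14 (SD, n = 3) was 8.37 log2 units, or 330-fold, below the C-fragment mean of 6.14 ± 0.03 (SD, n = 3). Against WT, the N-fragment difference of Lgals3 was -6.76 ± 1.00 log2 units (108-fold lower, called). The C-fragment was 1.61 ± 1.00 above WT, which was called only without the N+C arrays (1.61 ± 0.07). D361E and WT differed by -0.08 ± 1.00, and by -0.08 ± 0.07 without the N+C arrays, and neither was called.

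With both fragments together Lgals3 depended on the array set. N+C replicates 1 to 3 averaged 1.73 ± 0.06 (SD, n = 3), 5.51-fold below void, and replicates 4 and 5 averaged -2.65 ± 0.10 (SD, n = 2), 114-fold below void. The first set exceeded the second by 4.38 log2 units or 20.8-fold, which ranked 37 among all genes for the size of the gap. Every N+C array lay below every void, WT and C-fragment array. Over all 5 arrays the N+C difference from void was -4.21 ± 0.89 and that from WT was -4.55 ± 0.89, both called. The N+C difference from void was -2.46 ± 0.06 when N+C was represented by replicates 1 to 3 and -6.84 ± 0.08 when it was represented by replicates 4 and 5, and both were called. In the model of N+C and void arrays alone the difference of -4.21 had an SE of 1.28 and was not called, nor was the difference of -4.55 ± 1.29 in the model of N+C and WT arrays alone.

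Each slide held arrays of several groups. Within slides the differences from void were -6.54 with the N-fragment (1 slide), 1.88 with the C-fragment (1 slide), 0.24 to 0.33 with D361E (2 slides), -6.75 to -2.50 with N+C (3 slides) and 0.24 with WT (1 slide). With slide as a block the N-fragment difference was -6.64 ± 1.14 and the C-fragment difference 1.24 ± 1.15. The WT difference turned to -0.37 ± 1.15 in that fit and was 0.26 ± 0.07 with the slide block and without the N+C arrays. The summed level of the 6 fibroblast markers was 0.25 to 0.70 with D361E, 1.50 to 1.80 with the N-fragment, -0.61 to -0.43 with the C-fragment, -2.39 to -2.21 on N+C 1 to 3, -0.60 to -0.56 on N+C 4 and 5, 0.06 to 0.21 with WT and 0.35 to 0.71 with void. Of that list Col1a2 was above background on all 20 arrays, Col1a1 on 18, Pdgfra on 17, Thy1 on 3, and Col3a1 and Dcn on 0. For the 8 macrophage markers the summed level was 0.99 to 1.71 with D361E, 1.13 to 1.42 with the N-fragment and 1.54 to 1.82 with the C-fragment. It was 1.43 to 1.81 on N+C 1 to 3 and 1.18 to 1.33 on N+C 4 and 5. With WT it was 1.35 to 1.72 and with void 1.47 to 2.41. The part of fibroblasts or macrophages in the Lgals3 values was not tested.

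Lgals3bp, the gene of the secreted galectin-3 ligand, was highest in void cells and lowest with the N-fragment. Its levels were 4.41, 4.83 and 4.59 with D361E, 3.69, 3.49 and 3.35 with the N-fragment, and 4.86, 4.81 and 4.79 with the C-fragment. With N+C they were 4.60, 4.54, 4.62, 4.80 and 4.89, with WT 4.87, 4.86 and 4.88, and with void 5.07, 5.29 and 5.41. All 3 void arrays lay above all 17 construct arrays, and all 3 N-fragment arrays lay below all others.

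The N-fragment difference of Lgals3bp from void was -1.75 ± 0.12 (3.36-fold lower, called), and that from WT was -1.36 ± 0.12 (2.57-fold lower, called). The other constructs stood closer to void, at -0.65 ± 0.12 with D361E, -0.44 ± 0.12 with the C-fragment, -0.57 ± 0.11 with N+C (these 3 called) and -0.39 ± 0.12 with WT (not called, though called without void 1, at -0.48, and without the N+C arrays, at -0.39). Without scaling between arrays the WT difference was 0.01, where the median of all genes was 0.37. The N+C mean minus the N-fragment mean was 1.18 log2 units, with no overlap of arrays, and the N+C mean minus the C-fragment mean was -0.13, with overlap. The 2 N+C sets averaged 4.58 (replicates 1 to 3) and 4.85 (replicates 4 and 5). Within slides the N-fragment difference from void was -1.72 (1 slide), D361E gave -0.70 to -0.58 (2 slides), N+C -0.59 to -0.52 (3 slides), the C-fragment -0.28 (1 slide) and WT -0.21 (1 slide). The C-fragment call was lost without void 2, without void 3 and without any single C-fragment array (-0.46 to -0.36 over these 5 fits). It was also lost with no filter on dim probes (-0.44) and without scaling between arrays, where the C-fragment difference was -0.20 ± 0.10 and the median of all genes 0.21.

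A second probe for Lgals3bp gave the same order of values. Its differences from void were -0.62 with D361E, -1.77 with the N-fragment, -0.35 with the C-fragment, -0.53 with N+C and -0.28 with WT, against -0.65, -1.75, -0.44, -0.57 and -0.39 for the brighter probe.

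**Figure D2:**
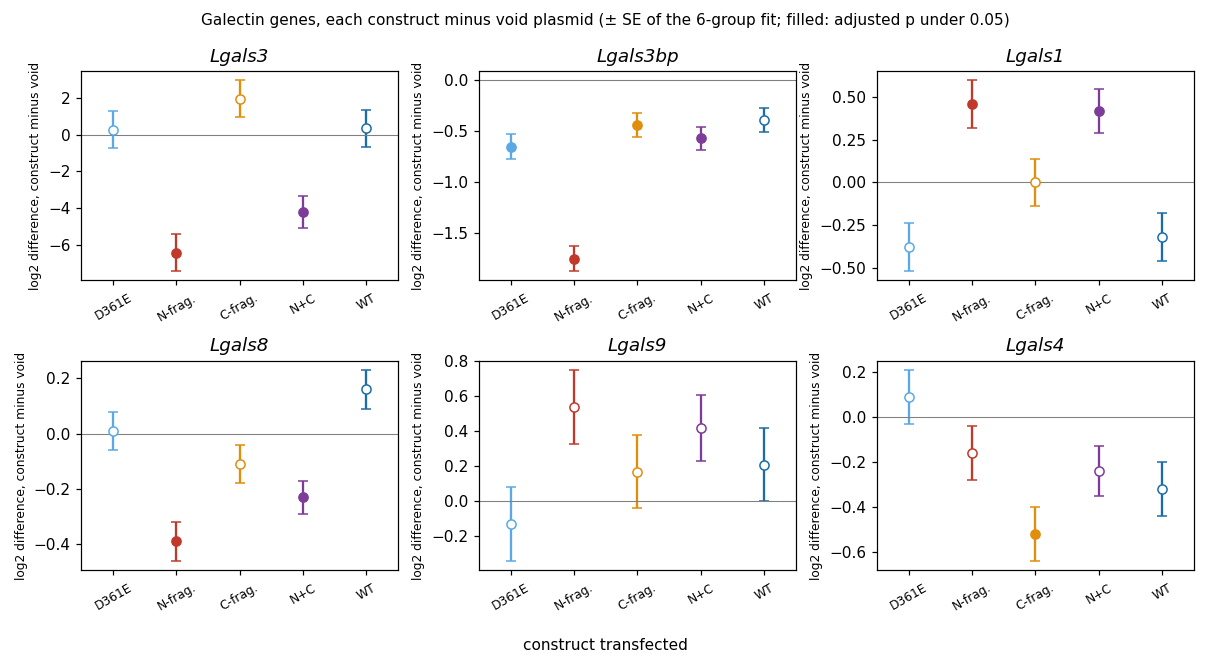
Log2 difference of the 6 measured galectin genes, each construct minus void (y axis), with bars of 1 SE from the 6-group model and filled points where the gene was called. Lgals3 was -6.42 with the N-fragment and 1.95 with the C-fragment, and every Lgals3bp point lies below 0. The y axes differ between panels.

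Lgals1, the gene of the prototype galectin-1, was higher with the N-fragment and with N+C. Its levels were 6.76, 7.29 and 6.99 with D361E, 8.10, 7.81 and 7.65 with the N-fragment, 7.46, 7.31 and 7.40 with the C-fragment, 7.79, 7.69, 7.77, 7.90 and 7.91 with N+C, 7.07, 7.03 and 7.13 with WT, and 7.09, 7.47 and 7.62 with void. All 8 arrays that received the N-fragment, alone or with the C-fragment, lay above all 12 others, by a narrow margin over void 3. The differences from void were 0.46 ± 0.14 with the N-fragment (1.37-fold) and 0.42 ± 0.13 with N+C (1.34-fold), both called. D361E gave -0.38 ± 0.14, the C-fragment 0.00 ± 0.14 and WT -0.32 ± 0.14, none of them called.

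Void 1 weighed on the Lgals1 values. Without it the difference was 0.31 with the N-fragment and 0.27 with N+C, and neither was called, and the N-fragment difference was 0.33 and uncalled without N-fragment 1. Against WT, whose arrays were close together, Lgals1 was called with the N-fragment (0.77 ± 0.14, 1.71-fold) and with N+C (0.74 ± 0.13, 1.67-fold), and not with the C-fragment (0.32 ± 0.14). The N+C set means of 7.75 and 7.91 differed from void by 0.36 ± 0.15, not called with replicates 1 to 3 only, and by 0.51 ± 0.17, called with replicates 4 and 5 only. In models of the compared groups alone neither the N-fragment nor the N+C difference from void was called. Within slides the difference from void was 0.48 with the N-fragment (1 slide) and 0.29 to 0.60 with N+C (3 slides). With slide as a block it was called with the N-fragment (0.51 ± 0.07), N+C (0.44 ± 0.06) and D361E (-0.37 ± 0.07). In that fit the C-fragment (0.18 ± 0.07) and WT (-0.13 ± 0.07) were not called against void. The C-fragment difference from WT was 0.32 ± 0.06 and called, both with the block and in the model of those 2 groups alone.

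Lgals8, the gene of galectin-8, which binds sugars exposed on damaged vesicles, varied by only 0.56 log2 units between group means. Its levels were 1.94, 1.85 and 1.90 with D361E, 1.45, 1.56 and 1.46 with the N-fragment, 1.76, 1.82 and 1.74 with the C-fragment, 1.66, 1.72, 1.56, 1.63 and 1.73 with N+C, 2.15, 2.03 and 1.96 with WT, and 2.02, 1.86 and 1.78 with void. The N-fragment arrays were the lowest, and the highest of them equalled N+C 3 at 1.56. Against void the difference was -0.39 ± 0.07 with the N-fragment and -0.23 ± 0.06 with N+C (both called), -0.11 ± 0.07 with the C-fragment, 0.01 ± 0.07 with D361E and 0.16 ± 0.07 with WT. Against WT it was -0.56 ± 0.07 with the N-fragment, -0.27 ± 0.07 with the C-fragment and -0.39 ± 0.06 with N+C, all 3 called.

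The smaller Lgals8 calls were fragile. Without void 1 the N+C difference from void was -0.16 and not called. Its set means were 1.65 and 1.68, and it was called with replicates 1 to 3 only (-0.24) and not with replicates 4 and 5 only (-0.21). The C-fragment call against WT was lost without WT 1, without WT 2 and without any single C-fragment array (-0.30 to -0.22 over these 5 fits). Signals without scaling between arrays gave -0.06 with the N-fragment and -0.01 with N+C against void, uncalled, where the median of all genes was 0.28 and 0.19.

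Lgals9, the gene of the tandem-repeat galectin-9 that binds the receptor encoded by Havcr2, had no call against void or WT in the model of all arrays. Its levels were -0.77, -0.43 and -0.62 with D361E, 0.27, 0.10 and -0.21 with the N-fragment, -0.23, -0.29 and -0.41 with the C-fragment, -0.35, -0.28 and -0.19 with WT, and -0.69, -0.41 and -0.34 with void. With N+C it was -0.43, -0.42 and -0.22 on replicates 1 to 3 and 0.42 and 0.36 on replicates 4 and 5. The N+C sets therefore differed by -0.74 log2 units (replicates 1 to 3 minus 4 and 5), opposite in direction to Lgals3. The N-fragment difference from void was 0.54 ± 0.21 with no overlap of arrays, and it was called with slide as a block (0.56 ± 0.18), without the N+C arrays and with either N+C set alone (0.54 ± 0.13 in these 3 fits), and without scaling (0.87 ± 0.19). Represented by replicates 4 and 5, N+C differed from void by 0.87 ± 0.14 and from WT by 0.66 ± 0.14, both called. Represented by replicates 1 to 3 it differed from void by 0.13 ± 0.13 and from WT by -0.08 ± 0.13, neither called. Over all 5 arrays N+C was called against void with slide as a block (0.43 ± 0.15) and without scaling (0.64 ± 0.17).

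Lgals4, the gene of a galectin known from gut epithelium, was a low but detected signal on all arrays. Its levels were -1.11, -0.93 and -0.88 with D361E, -1.05, -1.22 and -1.38 with the N-fragment, -1.47, -1.58 and -1.67 with the C-fragment, -1.16, -1.33, -1.34, -1.43 and -1.21 with N+C, -1.32, -1.35 and -1.45 with WT, and -1.35, -0.95 and -0.86 with void. The C-fragment arrays were the lowest. Their difference from void was -0.52 ± 0.12 and called, and it was -0.31 within the 1 shared slide. Without void 3 the C-fragment difference was -0.42 and not called. It was -0.28 ± 0.13 and not called without scaling, where the median of all genes was 0.21, and not called in the model of the 2 groups alone (-0.52 ± 0.15). The other 4 constructs had no call, with differences of -0.32 to 0.09, and the N+C set means were -1.27 and -1.32.

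The 3 Lgals4 probes gave C-fragment differences from void of -0.52, -0.55 and -0.45. They disagreed in sign only for D361E, at 0.09, -0.11 and -0.03.

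**Figure D3:**
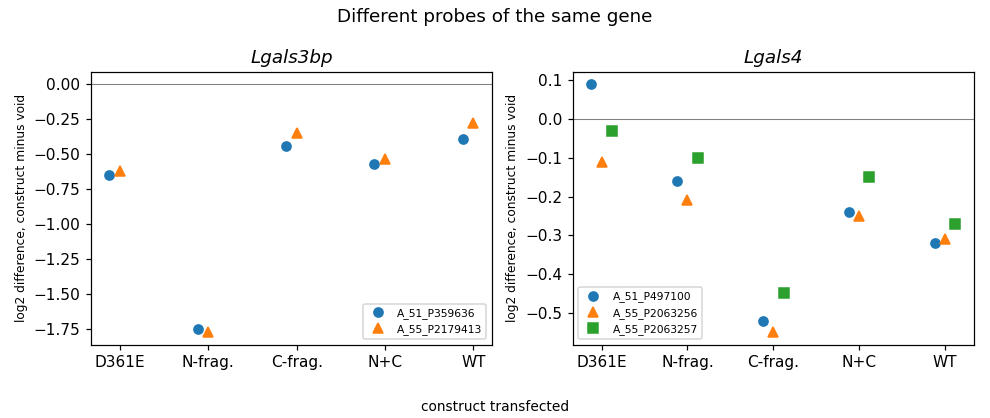
Log2 difference from void (y axis) of the separate probes of Lgals3bp (2 probes) and Lgals4 (3 probes) for each construct (x axis). Points are differences of group means without error bars. The N-fragment gives -1.75 and -1.77 on the 2 Lgals3bp probes, and the Lgals4 probes straddle 0 only for D361E.

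Lgals7, the gene of a galectin of stratified epithelia, was well above background on 2 of 20 arrays, WT 1 at -3.95 and void 2 at -3.69. On the other 18 arrays its probe gave -8.30 to -6.49, not well above background, so no difference is given. Among the 7 epithelial markers the array with the highest summed level was void 2 (-2.82), and WT 1 was at -3.52, the third highest, in a range down to -4.20. On both arrays 3 epithelial markers were above background, and on the other 18 arrays 0 to 2 were. Krt14 was above background on 16 arrays and Krt5 on 8. Krt18, Cdh1 and Epcam were on 1 array each, and Krt8 and Krt19 on 0. The part of such cells in the Lgals7 signal was not tested.

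Counted over the 6 measured members, 4 were called with the N-fragment against void (1 higher, 3 lower), where 31.1% of all genes were called (13.2% higher, 17.9% lower). With N+C 4 were called (1 higher, 3 lower), against 24.6% of all genes (11.8% higher, 12.8% lower). With the C-fragment 2 were called, both lower, against 13.1% of all genes (4.88% higher, 8.24% lower). With D361E 1 was called, Lgals3bp, which was lower, against 13.5% of all genes (6.04% higher, 7.44% lower). With WT 0 were called, against 9.39% of all genes (3.22% higher, 6.16% lower). The comparisons with most member calls were thus those in which the most genes were called.

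Against WT 4 members were called with the N-fragment (1 higher, 3 lower), against 27.3% of all genes (13.8% higher, 13.5% lower). With N+C 3 were called (1 higher, 2 lower), against 23.3% (13.6% higher, 9.67% lower). With the C-fragment 1 was called, Lgals8, which was lower, against 4.44% (2.09% higher, 2.35% lower). With D361E 0 were called, against 4.21% (2.42% higher, 1.79% lower). Members whose arrays did not overlap with void numbered 5 with the N-fragment (43.4% of all genes), 3 with the C-fragment (38.9%), 4 with N+C (24.4%), 2 with D361E (31.1%) and 2 with WT (33.6%). For WT as the other side they numbered 4 with the N-fragment (47.9%), 5 with the C-fragment (38.2%), 3 with N+C (28.1%) and 5 with D361E (26.1%).

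The median difference of the 6 members from void was -0.28 with the N-fragment, against -0.06 for all genes, -0.23 with N+C against -0.03, -0.06 with the C-fragment against -0.02, -0.06 with D361E against -0.04 and -0.08 with WT against -0.03. The comparisons against void share the 3 void arrays, and those against WT share the 3 WT arrays.

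Of 6 further listed galectin genes 4 were on the array. The list was chosen with earlier results of these data known, so the p-value below is a description. Lgalsl, a galectin-like gene, was above background on 20 of 20 arrays and was lower with the N-fragment than with void (-0.59 ± 0.10, limma adjusted p = 0.000187), with no call for the other 4 constructs. Its N-fragment levels were 1.30, 1.10 and 1.06, below every void array at 1.69, 1.74 and 1.80. Grifin, Lgals12 and Lgals2 were above background on 0 of 20 arrays.

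The genes whose pattern over the 20 arrays came closest to Lgals3 were Car2, Vldlr, Plxdc2, Aass and Kcnj13. Closeness was the root-mean-square difference of the mean-centred log2 levels, which was 1.63 for Car2, 1.88 for Vldlr, 1.90 for Plxdc2, 1.91 for Aass and 1.91 for Kcnj13, against a median of 3.12 over 13768 genes with symbols. A gene that does not vary lies from Lgals3 by the spread of Lgals3 itself, so that median is no measure of likeness. On the N-fragment arrays Vldlr, Plxdc2 and Kcnj13 were above background on 0 of 3 and Aass on 1 of 3. Car2 encodes a carbonic anhydrase. It averaged -3.94 with D361E, -3.55 with the C-fragment, -3.28 with WT and -3.64 with void. It was above background on 3 of 3 arrays of N+C 1 to 3 (mean -4.29) and on 0 of the N-fragment arrays and 0 of N+C 4 and 5, the same arrays on which Lgals3 was lowest. On the C-fragment arrays Lgals3 was 3.54 to 3.61 log2 units above its own mean over the 20 arrays, and the 5 genes were 0.42 to 2.01 above theirs. Kcnj13, a potassium channel gene, parted from Lgals3 on the N+C arrays, at -6.08 on replicates 1 to 3 (above background on 0 of 3) and -3.89 on replicates 4 and 5 (2 of 2).

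**Figure D4:**
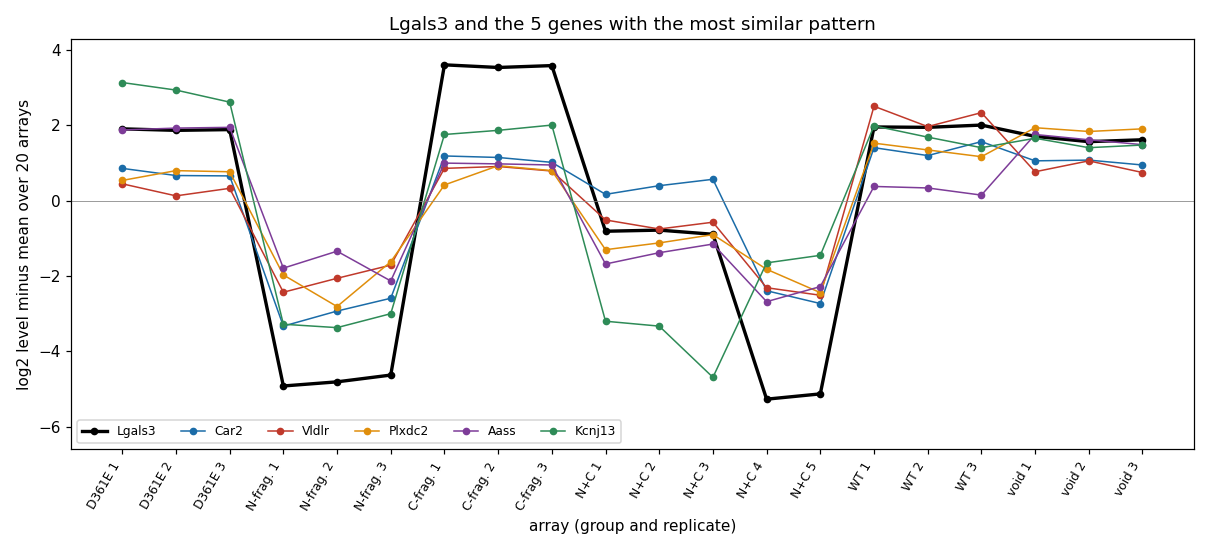
Log2 level minus the gene's mean over 20 arrays (y axis) for Lgals3 and the 5 genes nearest to it, array by array (x axis), where each point is 1 array and lines only join points of a gene. Lgals3 and Car2 are both lowest with the N-fragment and on N+C 4 and 5, and Kcnj13 is higher on N+C 4 and 5 than on N+C 1 to 3.

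Galectins act through the sugars of other proteins, and 3 lists cover these genes. They hold 28 glycoprotein ligands (24 measured) and 22 genes that build, cap or supply the glycans (22 measured). The last list holds 15 partners at damaged endosomes and lysosomes (15 measured). All p-values below are limma adjusted p over all genes. The lists were chosen with earlier results of these data known, and genes were named from them for large called differences. These p-values therefore describe the named genes and do not test the lists. Against void 7 ligand genes were higher and 1 lower with the N-fragment, 8 and 1 with N+C, 4 and 1 with the C-fragment, 7 and 0 with D361E, and 4 and 0 with WT. The shares of all genes called were 31.1% with the N-fragment (13.2% higher, 17.9% lower) and 24.6% with N+C (11.8% higher, 12.8% lower). They were 13.1% with the C-fragment (4.88% higher, 8.24% lower), 13.5% with D361E (6.04% higher, 7.44% lower) and 9.39% with WT (3.22% higher, 6.16% lower). The same shares stand against the counts of glycan genes and endosomal partners given after them. The median ligand difference was 0.26 with N+C and 0.17 with D361E, and lay between -0.01 and 0.08 with the other 3 constructs. Over the 3 lists and the further galectins 21 genes were called with N+C against void, 31 when N+C was represented by replicates 1 to 3 and 33 when it was represented by replicates 4 and 5. Over all 18739 genes 4601, 6315 and 5296 (of 18738) were called in the same 3 fits.

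Lamb1, a laminin chain, rose with the N-fragment to a mean of 2.27 against -3.43 with void (5.70 ± 0.49, adjusted p = 2.91e-07). It was also higher with D361E (2.29 ± 0.49, adjusted p = 0.00512) and with WT (2.49 ± 0.49, adjusted p = 0.00483). With the C-fragment it was 1.37 ± 0.49 above void and not called. Its C-fragment levels of -2.18 to -1.88 still lay above its void levels of -3.57 to -3.32. With N+C it was not called (1.00 ± 0.44), and its set means were -3.26 on replicates 1 to 3 and -1.17 on replicates 4 and 5. Fn1, the gene of fibronectin, rose with the N-fragment (2.95 ± 0.43, adjusted p = 7.21e-05) and with N+C (1.86 ± 0.38, adjusted p = 0.00211), where the set means were 2.91 and 1.06 against 0.31 with void. The N+C arrays widen the SEs of both genes, with an N+C SD of 1.17 for Lamb1 and 1.02 for Fn1. In the other groups the SD was at most 0.17 for either gene. Lamb1 and Fn1 are also made by fibroblasts, whose summed marker level is given above, and the part of such cells in these values was not tested.

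Among cell-surface ligands Mcam, an adhesion molecule that galectins 1 and 3 bind, was higher and called with 4 constructs. These were the N-fragment (0.87 ± 0.13, adjusted p = 9.1e-05), N+C (0.66 ± 0.12, adjusted p = 0.000663, set means 5.06 and 4.81, both above void), the C-fragment (0.59 ± 0.13, adjusted p = 0.00726) and D361E (0.41 ± 0.13, adjusted p = 0.0489). With WT Mcam was 0.43 ± 0.13 above void (adjusted p = 0.0503), just short of a call. Its WT levels of 4.67 to 4.77 lay above its void levels of 4.18 to 4.37. Cspg4, a melanoma proteoglycan, was lower with the C-fragment (-0.68 ± 0.19, adjusted p = 0.0243) and higher with N+C (0.64 ± 0.17, adjusted p = 0.0101, set means -1.25 and -1.21 against -1.88 with void). Tfrc, the transferrin receptor, was higher with the C-fragment (0.30 ± 0.07, adjusted p = 0.00884) and with N+C (0.33 ± 0.06, adjusted p = 0.000995, set means 2.02 and 2.17 against 1.75 with void). Havcr2, the galectin-9 receptor TIM-3, was higher with D361E (0.65 ± 0.19, adjusted p = 0.0332) and WT (0.76 ± 0.19, adjusted p = 0.0208). Cd63, a lysosomal tetraspanin, was slightly lower with the N-fragment (-0.19 ± 0.06, adjusted p = 0.0322) and with N+C (-0.21 ± 0.06, adjusted p = 0.0119, set means 7.60 and 7.63 against 7.82 with void).

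Of the 22 glycan genes 4 were higher and 7 lower with the N-fragment, 5 and 2 with N+C, 2 and 1 with the C-fragment, 5 and 1 with D361E, and 2 and 2 with WT. Gcnt1, which starts the branch of core 2 O-glycans, rose with the N-fragment (1.09 ± 0.06, adjusted p = 5.96e-10), with N+C (0.91 ± 0.05, adjusted p = 3.53e-09) and with the C-fragment (0.22 ± 0.06, adjusted p = 0.0143). Both N+C sets stood near each other for Gcnt1, at 0.47 and 0.49 against -0.43 with void. Gcnt2, an enzyme of I-branching, was higher with N+C (0.79 ± 0.13, adjusted p = 0.000254, set means -2.45 and -2.64 against -3.32 with void).

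St6gal1, whose alpha-2,6 sialic acid caps galactose and blocks binding of several galectins, fell with the N-fragment (-0.93 ± 0.12, adjusted p = 1.67e-05). It was higher with the C-fragment (0.65 ± 0.12, adjusted p = 0.00179) and with WT (0.64 ± 0.12, adjusted p = 0.00276), and it was not called with N+C (0.04 ± 0.10), whose set means were 0.41 and -0.02. St3gal6, an alpha-2,3 sialyltransferase, fell with the N-fragment (-0.90 ± 0.10, adjusted p = 4.4e-06) and with N+C (-0.42 ± 0.09, adjusted p = 0.00244, set means 2.70 and 2.98 against 3.23 with void). St3gal1, a sialyltransferase of O-glycans, fell with the N-fragment (-0.27 ± 0.09, adjusted p = 0.0369), the C-fragment (-0.52 ± 0.09, adjusted p = 0.00194), D361E (-0.65 ± 0.09, adjusted p = 0.000204) and WT (-0.79 ± 0.09, adjusted p = 5.98e-05).

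Several enzymes of N-glycan branching were also called, some of them in both directions. Mgat4b rose with the N-fragment (0.46 ± 0.11, adjusted p = 0.00515). Mgat4a fell with the N-fragment (-0.67 ± 0.08, adjusted p = 1.74e-05) and rose with D361E (0.58 ± 0.08, adjusted p = 0.000212). Mgat5, which adds the branch that galectin-3 prefers on surface receptors, rose with D361E (0.31 ± 0.09, adjusted p = 0.0317). It fell with N+C (-0.42 ± 0.08, adjusted p = 0.00117, set means -0.64 and -0.48 against -0.16 with void) and with WT (-0.32 ± 0.09, adjusted p = 0.0365). Man2a1, the Golgi mannosidase before those branches, rose with the N-fragment (0.43 ± 0.06, adjusted p = 5.09e-05), D361E (0.89 ± 0.06, adjusted p = 9.4e-08) and WT (0.28 ± 0.06, adjusted p = 0.00836).

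Of the 15 endosomal and lysosomal partners 2 were higher and 3 lower with the N-fragment, 2 and 3 with N+C, 0 and 2 with the C-fragment, 2 and 1 with D361E, and 1 and 1 with WT. Calcoco1, a relative of the autophagy receptor that galectin-8 recruits in human cells, was lower with the N-fragment (-0.81 ± 0.10, adjusted p = 9.06e-06), N+C (-0.76 ± 0.09, adjusted p = 9.97e-06), the C-fragment (-0.43 ± 0.10, adjusted p = 0.00715) and D361E (-0.61 ± 0.10, adjusted p = 0.00046). Sqstm1, the autophagy adaptor p62, was higher with the N-fragment (0.43 ± 0.11, adjusted p = 0.00645), N+C (0.50 ± 0.10, adjusted p = 0.00125) and D361E (0.51 ± 0.11, adjusted p = 0.00433). The N+C set means were -3.91 and -3.89 for Calcoco1, against -3.14 with void, and 4.87 and 4.77 for Sqstm1, against 4.33 with void. Optn, an autophagy receptor, was higher with D361E (0.97 ± 0.16, adjusted p = 0.000648) and with WT (0.58 ± 0.16, adjusted p = 0.0296).

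Map1lc3b, an LC3 gene, was lower with the N-fragment (-0.43 ± 0.06, adjusted p = 2.66e-05) and N+C (-0.30 ± 0.05, adjusted p = 0.000433). Gabarapl2, of the same family, was lower with the N-fragment (-0.34 ± 0.05, adjusted p = 0.000145), N+C (-0.21 ± 0.05, adjusted p = 0.00482), the C-fragment (-0.18 ± 0.05, adjusted p = 0.0354) and WT (-0.23 ± 0.05, adjusted p = 0.0146). The N+C set means were 2.78 and 2.91 for Map1lc3b, against 3.13 with void, and 3.90 and 3.82 for Gabarapl2, against 4.08 with void. Atg16l1, needed to attach LC3 to membranes, was higher with the N-fragment (0.26 ± 0.10, adjusted p = 0.0485), and Chmp4b, a membrane-repair subunit, with N+C (0.22 ± 0.07, adjusted p = 0.0229, set means 5.10 and 4.87 against 4.79 with void).

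**Figure D5:**
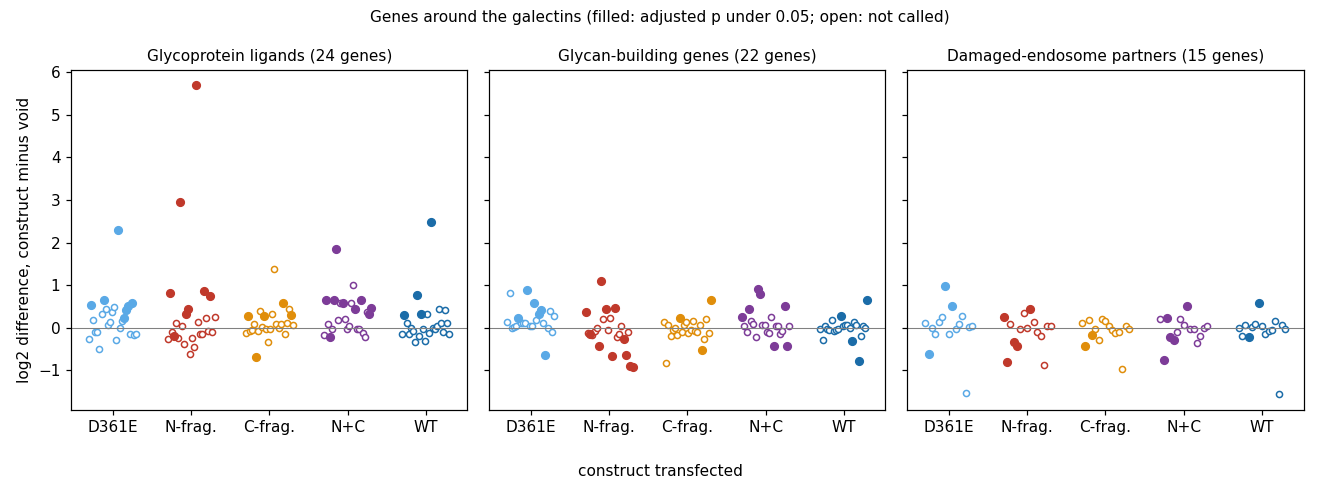
Log2 difference from void (y axis) of each measured gene in the 3 lists for each construct (x axis), with 1 point per gene, filled where called. The highest point is Lamb1 with the N-fragment at 5.70, and Fn1 with the N-fragment follows at 2.95. Among the glycan genes Gcnt1 with the N-fragment is the highest filled point at 1.09 and St6gal1 with the N-fragment the lowest at -0.93.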

How the data were processed

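Total RNA of 20 samples in 6 groups was labelled with Cy3 and hybridised to 1-colour Agilent arrays. The authors deposited 1 scanner file per array that holds an intensity for each spot, and the submitters' processing notes name Agilent Feature Extraction, version 10.7.3.1. The processed signal in these files is background-subtracted and, per the file headers, comes from 5 slides of 4 arrays scanned on 1 day. It equalled the deposited series table on all 887940 values (relative tolerance 1e-06), so that table is not scaled between arrays. The title "Blanck" was taken to mean the void plasmid.

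Levels are the log2 processed intensity minus the 75th percentile of the array, taken over its non-control probes. Before scaling, that percentile differed between arrays by up to 1.448-fold. Spots marked as outliers by the scanner software (98 to 285 per array) were left out and repeat spots of a probe averaged. A probe had to exceed background on 3 or more of 20 arrays (23433 did), and the brightest probe stood for its gene, giving 18739 genes. Probes without a symbol were kept under their accession, so 13824 of these genes have a symbol. Names came from a RefSeq gene table through the probe's accession (28663 of 39429 probes, 72.7%). limma 3.58.1 in R 4.3.3 fitted all 6 groups (residual df 14, prior df 1.44) without covariates, with Benjamini-Hochberg adjustment per comparison. The fit was tested on simulated data. The number of arrays limits the precision.

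The members, lists and comparisons were chosen with earlier results of these data known. Named genes were all members and further galectins on the array, Rela, up to 2 called genes per direction, list and comparison against void, and the 5 genes most like the member of widest range. Alternatives covered scaling, background correction, the filter, the probe rule, the groups in the fit, the slide, the N+C sets and each array left out. Gene roles are stated as general background.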

Additional observations from a re-analysis of the deposited data

How the results depend on the processing

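All 19 called galectin differences kept their sign in all 342 alternative values, and 309 of these remained called. Of the 630 values of the 35 uncalled differences 67 were called. Counts of called members were as follows where they moved by over 1.5 times or to or from 0. Within that margin they lay between 3 and 5 for the N-fragment and for N+C and between 2 and 3 for the C-fragment against void, and between 4 and 5 for the N-fragment and 2 and 4 for N+C against WT. For WT against void (0) they were 2 without scaling, 1 with the filter on all arrays, 1 with slide as a block, 1 with only the 2 groups, 2 with N+C 1 to 3 only and 2 with N+C 4 and 5 only. Over all genes 1759 of 18739 were called in the main fit, and 7678, 1787 (of 14854), 1956, 1532, 3311 and 3058 in order. For D361E against void (1) the member counts were 2 with normexp and quantile normalization, 2 with slide as a block, 0 with only the 2 groups, 2 with N+C 1 to 3 only and 2 with N+C 4 and 5 only. Over all genes 2527 were called in the main fit, and 2109, 3635, 1450, 4117 and 3912 in order. For the C-fragment against void (2) the member counts were 0 without scaling and 1 with no filter. Over all genes 2460 were called in the main fit, and 3378 and 1660 (of 32016) in order. For N+C against void (4) the member count was 1 with only the 2 groups, where 2023 of all genes were called against 4601 in the main fit. For D361E against WT (0) the member counts were 1 without scaling, 2 with normexp and 1 with slide as a block. Over all genes 788 were called in the main fit, and 1403, 757 and 871 in order. For the C-fragment against WT (1) the member counts were 0 without scaling, 0 with normexp, 0 with no filter, 2 with slide as a block, 3 with only the 2 groups, 2 with N+C 1 to 3 only and 2 with N+C 4 and 5 only. Over all genes 832 were called in the main fit, and 940, 536, 469 (of 32016), 1699, 2299, 2051 and 1882 in order. In these cases the cause was not tested.

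After the data were seen, fits without all N+C arrays were added, with and without slide as a block. Without the block the member counts were 2 for WT against void, 2 for D361E against void and 2 for the C-fragment against WT. Over all genes 2878, 3754 and 1744 were called in order. With the block the member counts were 3 for WT, 3 for D361E and 5 for the C-fragment against void, where 3338, 5738 and 4384 of all genes were called. Against WT they were 3 for D361E and 3 for the C-fragment, where 1868 and 3761 of all genes were called. Called genes of the other lists were 16 with D361E, 25 with the N-fragment, 10 with the C-fragment, 21 with N+C and 10 with WT against void. Over all genes 2527, 5830, 2460, 4601 and 1759 were called in order. For D361E the list counts were 10 with no filter, 9 with only the 2 groups, 26 with N+C 1 to 3 only, 26 with N+C 4 and 5 only, and 36 with the block and no N+C arrays. Over all genes 1930 (of 32016), 1450, 4117, 3912 and 5738 were called in order. For the C-fragment the list counts were 4 with the mean of probes, 18 and 16 with either N+C set, 16 without the N+C arrays and 19 with the block as well. Over all genes 2406, 4254, 3950, 3751 and 4384 were called in order. For N+C the list count was 33 with N+C 4 and 5 only, where 5296 of 18738 genes were called. For WT it was 41 without scaling, where 7678 of all genes were called.

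Leaving out 1 array at a time, called members ranged from 0 to 3 for WT (3 without void 1), 1 to 2 for D361E (2 without void 1 or D361E 2), 3 to 5 for the N-fragment, 0 to 2 for the C-fragment (0 without void 3) and 3 to 4 for N+C against void. Against WT they were 0 for D361E, 4 for the N-fragment, 0 to 1 for the C-fragment and 3 for N+C. Called genes of the other lists ranged from 5 to 9 for WT, 10 to 14 for D361E, 21 to 24 for the N-fragment, 5 to 10 for the C-fragment and 20 to 24 for N+C. The share of all genes called in these fits is not given, so these ranges are no result about the galectins or lists.

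No scaling moved the median of all genes against void to 0.37 for WT, 0.12 for D361E, 0.28 for the N-fragment, 0.21 for the C-fragment and 0.19 for N+C. The normexp setting used the median spot signal and median local background with an offset of 50. The titles name no pairs of samples, so samples were not paired. Slides entered through the within-slide differences and the slide block. Signal over background limits Lgals7, which has no measured difference, and the 3 arrays per group limit differences of the size seen for Lgals8, Lgals9 and Lgals4.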
